A study of Mus musculus with 6 samples.

Results

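The imprinted growth-network genes examined here are *H19*, *Dlk1*, *Peg3*, *Mest*, *Grb10*, *Plagl1*, *Ndn*, *Peg10*, *Sgce* and *Nnat*, chosen by symbol. They were measured by RNA-seq in fibroblasts cultured from mouse embryos (MEFs), a mixed connective tissue preparation, of WT mice and of *Aff3ir-ORF2-/-* mice, a germline Cas9 knockout of an open reading frame nested in the *Aff3* locus. There were 3 libraries of each genotype, and no treatment was named for them. Embryo age, sex and whether the 3 libraries came from separate embryos or cultures are not given, so the p-values measure the spread between these libraries, which may be technical. Of the 10 genes, 9 were among the 17092 genes of the count table and passed the filter on low counts. *H19* was not analysed here, nor was *Aff3ir*, so the knockout was not checked in these counts.

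In genomic imprinting, a gene is expressed mainly from the copy inherited from one parent, because the parental copies carry different DNA methylation at a control region. Many imprinted genes act on fetal growth and are highly expressed in embryonic mesenchyme, and a set of them has been described as a co-expressed network that is switched down after birth. *Dlk1*, *Peg3*, *Mest*, *Plagl1*, *Ndn*, *Peg10*, *Sgce* and *Nnat* are known as paternally expressed genes, whereas *H19* and, outside neurons, *Grb10* are maternally expressed. The counts do not separate the parental copies, and DNA methylation was not measured.

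The imprinted genes did not move as 1 block in *Aff3ir-ORF2-/-* MEFs. *Dlk1*, a Notch-family transmembrane and secreted protein that holds back fat cell differentiation, rose 1.76-fold, and *Sgce*, the ε-sarcoglycan of the cell membrane, rose 1.30-fold. The other 7 genes did not pass the test. *Plagl1*, *Nnat* and *Peg10* had log2 fold changes of 0.36, 0.48 and 0.31, while those of *Grb10*, *Ndn*, *Peg3* and *Mest* lay between -0.33 and -0.08. A gene was called when edgeR's quasi-likelihood test gave an adjusted p (Benjamini-Hochberg) below 0.05 and the fold reached 1.5 either way. Of the 9 tested genes, 1 was called, which was higher, against 21.4% of all 13075 tested genes (14.2% higher and 7.27% lower). None of the 9 was called lower, nor at an unadjusted p under 0.05, with DESeq2 or with limma. The adjusted p alone was passed by 2 of the 9, both higher, against 56.8% of all tested genes (29.3% higher and 27.5% lower). The genotypes did not overlap in 4 of the 9 genes, *Dlk1*, *Sgce* and *Nnat* with higher and *Grb10* with lower levels in *Aff3ir-ORF2-/-* MEFs, against 66% of all tested genes (33.3% higher and 32.7% lower). The median log2 fold change of the 9 was 0.31, beside 0.01 over all tested genes, and their median size without sign was 0.33, beside 0.28.

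Depth was even, with 17435133 to 17726034 counts in a WT library and 18209421 to 18252330 in an *Aff3ir-ORF2-/-* library, of which the 9 genes together took 0.11% to 0.121%. The WT libraries lay much closer together, with a biological coefficient of variation of 0.0185, than the *Aff3ir-ORF2-/-* libraries, with 0.0996. Replicate 2 of *Aff3ir-ORF2-/-* stood apart, and without it that value was 0.0641. Values with and without this library are therefore given where it changes a call.

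**Figure D1:**
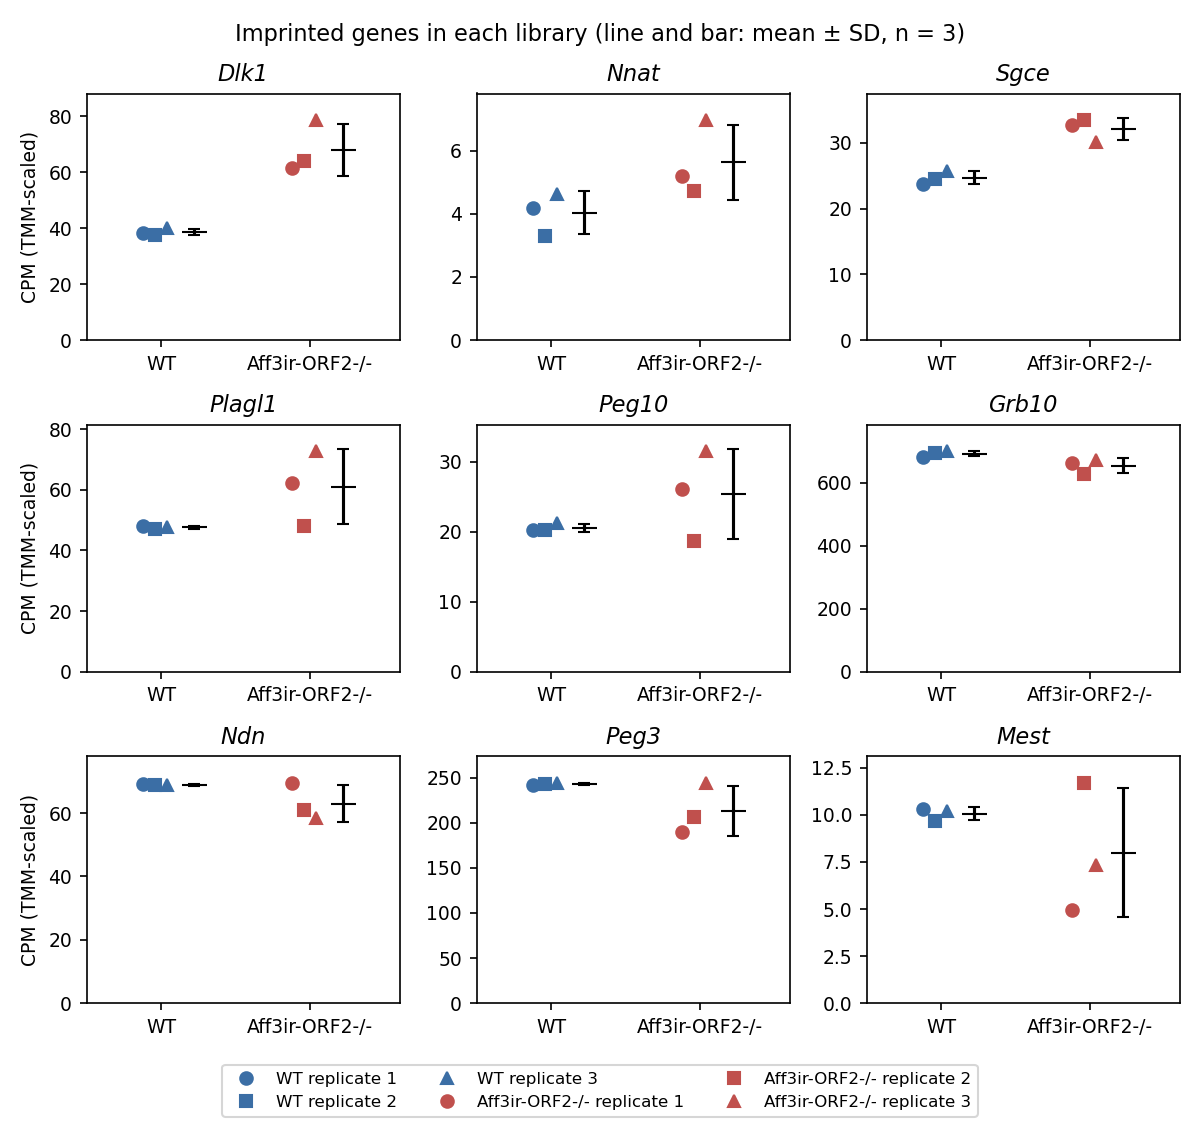
Level of each of the 9 tested imprinted genes in each library, in CPM (a gene's counts scaled to a common library size with TMM, linear axis from 0), with WT in blue and *Aff3ir-ORF2-/-* in red; marker shapes give the replicate number, and the black line and bar give the mean ± SD of 3 libraries. The 3 *Dlk1* values of *Aff3ir-ORF2-/-* MEFs lie between 61.5 and 78.6 CPM, all above the WT values of 37.5 to 39.9 CPM, whereas *Plagl1*, *Peg10*, *Ndn*, *Peg3* and *Mest* overlap between genotypes.

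*Dlk1* (NCBI Gene ID 13386) had 663, 660 and 697 counts in the WT libraries and 1121, 1191 and 1443 in the *Aff3ir-ORF2-/-* libraries. All 3 *Aff3ir-ORF2-/-* libraries were above all 3 WT libraries, and replicate 3 was the highest, at 2.04 times the WT mean in CPM, the gene's counts scaled to a common library size. The mean level went from 38.6 ± 1.19 to 68.0 ± 9.25 CPM (SD, n = 3 libraries), a log2 fold change of 0.82 with a standard error of 0.09, a 95% interval of 0.61 to 1.02 and an adjusted p of 9.16e-05. Without *Aff3ir-ORF2-/-* replicate 3 the log2 fold change was 0.70, and *Dlk1* was still called.

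The adaptor *Grb10* (14783), which binds the insulin and IGF1 receptors and dampens their signalling, was the most abundant of the 9 genes. It had 11784, 12221 and 12237 counts in WT against 12090, 11692 and 12365 in *Aff3ir-ORF2-/-* libraries. After scaling, the 3 WT values of 683, 695 and 700 CPM were above the 3 *Aff3ir-ORF2-/-* values of 664, 627 and 673 CPM, with no overlap. The log2 fold change of -0.08 (standard error 0.05, 95% interval -0.18 to 0.02) did not pass the test, with an adjusted p of 0.152. In fold terms the interval runs from 0.881 to 1.01.

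Neither zinc finger gene passed the test. *Plagl1* (22634), a transcription factor that induces other imprinted genes and restrains the cell cycle, had 829, 828 and 835 counts in WT against 1136, 894 and 1334 in *Aff3ir-ORF2-/-* libraries. Replicates 1 and 3 of *Aff3ir-ORF2-/-*, at 62.3 and 72.7 CPM, were above every WT library, while replicate 2, at 48.0 CPM, lay within the WT range of 47.1 to 48.1 CPM. The log2 fold change was 0.36 (standard error 0.14, 95% interval 0.02 to 0.69, adjusted p = 0.0663). Without replicate 2 it was 0.50, with an adjusted p of 3.83e-06, under 1.5-fold. Without replicate 3 it was 0.21, with an adjusted p of 0.11.

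*Peg3* (18616), a large zinc finger protein tied to p53 and TNF signalling, had 4177, 4280 and 4265 counts in WT against 3453, 3840 and 4486 in *Aff3ir-ORF2-/-* libraries. Replicates 1 and 2 of *Aff3ir-ORF2-/-* were below every WT library and replicate 3 was level with the highest, at 244 CPM. Its log2 fold change of -0.19 (standard error 0.08, 95% interval -0.38 to 0.00) had an adjusted p of 0.0834. Leaving out replicate 3 gave -0.30 with an adjusted p of 0.000897, and leaving out replicate 1 gave -0.12 with an adjusted p of 0.196.

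*Sgce* and *Peg10* lie head to head in one imprinted domain and share a control region, and both are known as paternally expressed. *Sgce* (20392) had 410, 431 and 451 counts in WT against 596, 624 and 555 in *Aff3ir-ORF2-/-* libraries. All 3 *Aff3ir-ORF2-/-* values, 30.2 to 33.5 CPM, were above the WT values of 23.8 to 25.8 CPM, and the log2 fold change was 0.38 (standard error 0.07, 95% interval 0.23 to 0.53, adjusted p = 0.000875), which is under 1.5-fold. *Peg10* (170676), a retrotransposon-derived gene needed for the placenta, had 348, 357 and 371 counts in WT against 475, 349 and 578 in *Aff3ir-ORF2-/-* libraries. Replicate 2 of *Aff3ir-ORF2-/-* was below every WT library in CPM, and the others were above. The log2 fold change was 0.31 (standard error 0.18, 95% interval -0.11 to 0.72, adjusted p = 0.18), and without replicate 2 it was 0.48 with an adjusted p of 9e-05. Without replicate 3 it was 0.12 with an adjusted p of 0.456. *Sgce* was thus higher in each *Aff3ir-ORF2-/-* library, whereas its neighbour was higher in 2 of 3.

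*Ndn* (17984), a MAGE-family protein that binds E2F1 and restrains growth, had 1194, 1211 and 1201 counts in WT against 1267, 1140 and 1072 in *Aff3ir-ORF2-/-* libraries. Replicate 1 of *Aff3ir-ORF2-/-*, at 69.5 CPM, was above every WT library, and the other two were below, so the genotypes overlapped. The log2 fold change was -0.13 (standard error 0.06, 95% interval -0.27 to 0.02, adjusted p = 0.116), and without replicate 1 it was -0.21 with an adjusted p of 0.0101. Without replicate 3 it was -0.08 with an adjusted p of 0.307.

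*Nnat* (18111), a small membrane protein of the endoplasmic reticulum known for its part in calcium handling, was the least counted of the 9 genes. It had 72, 58 and 81 counts in WT against 95, 88 and 128 in *Aff3ir-ORF2-/-* libraries. In CPM the genotypes did not overlap, but the lowest *Aff3ir-ORF2-/-* value, 4.72, was close to the highest WT value, 4.63. The log2 fold change of 0.48 (standard error 0.19, 95% interval 0.06 to 0.91) missed the threshold with an adjusted p of 0.0527. Without *Aff3ir-ORF2-/-* replicate 2 it was 0.59, with an adjusted p of 0.00979, and *Nnat* was called higher. Without *Aff3ir-ORF2-/-* replicate 3 it was 0.30, with an adjusted p of 0.192.

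*Mest* (17294), a hydrolase-like enzyme known as a marker of fat tissue expansion, was the least even of the 9. It had 177, 170 and 178 counts in WT against 90, 218 and 135 in *Aff3ir-ORF2-/-* libraries. Replicates 1 and 3 of *Aff3ir-ORF2-/-* were below every WT library and replicate 2 was above every WT library. The mean level was 10 ± 0.324 CPM in WT and 8 ± 3.42 CPM in *Aff3ir-ORF2-/-* MEFs (SD, n = 3 libraries), and the log2 fold change of -0.33 (standard error 0.28, 95% interval -0.99 to 0.34) had an adjusted p of 0.353. Without replicate 2 it was -0.71 with an adjusted p of 0.000609, and *Mest* was called lower. Without replicate 1 it was -0.08 with an adjusted p of 0.739. *Mest* exons overlap those of *Copg2* on the opposite strand, and whether the counting used strand is not given, so reads of these genes may have been shared. Without replicate 2, 3 of the 9 genes were thus called, *Dlk1* and *Nnat* higher and *Mest* lower, against 21.3% of all genes tested in those 5 libraries. With any other single library left out, *Dlk1* alone of the 9 was called.

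**Figure D2:**
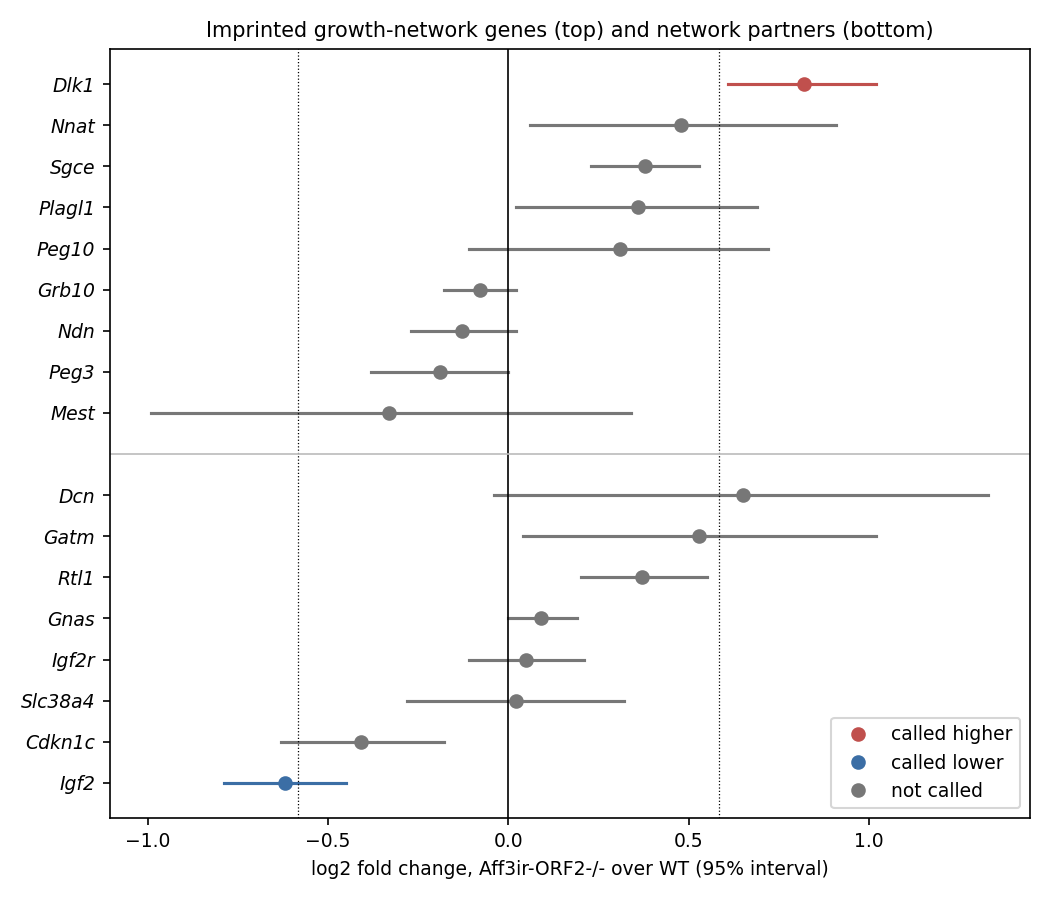
Log2 fold change of *Aff3ir-ORF2-/-* over WT for each tested imprinted gene and each tested network partner, with 95% intervals from edgeR's quasi-likelihood fit (horizontal axis, log2 scale; dotted lines at a 1.5-fold change either way). The intervals of *Dlk1*, *Sgce*, *Nnat*, *Plagl1*, *Rtl1* and *Gatm* lie above 0 and those of *Igf2* and *Cdkn1c* below it, while *Mest* and *Dcn* have the widest intervals.

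The 9 genes varied more between *Aff3ir-ORF2-/-* libraries than between WT libraries. The coefficient of variation between *Aff3ir-ORF2-/-* libraries was above that between WT libraries in 9 of the 9 genes, beside 69.4% of all tested genes and 74.4% of those with 10 CPM or more on average. Its median over the 9 genes was 2.8% in WT and 13.6% in *Aff3ir-ORF2-/-* MEFs, beside 4.39% and 7.67% over all tested genes. It was highest in *Mest*, at 42.8% between *Aff3ir-ORF2-/-* libraries, followed by *Peg10* at 25.2%, *Nnat* at 21.0% and *Plagl1* at 20.3%. *Grb10*, at 3.72%, and *Sgce*, at 5.28%, varied least. These values are a description of 3 libraries a genotype and were not tested.

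Per kilobase of the longest annotated transcript, the order of the levels in WT MEFs was *Grb10* with 137, *Peg3* with 28.0, *Ndn* with 18.7, *Plagl1* with 9.06, *Dlk1* with 8.30, *Sgce* with 5.59, *Mest* with 3.77, *Peg10* with 3.08 and *Nnat* with 2.79 CPM per kilobase. Among neighbours in this order, the WT libraries overlapped for *Peg10* and *Nnat* alone. In *Aff3ir-ORF2-/-* MEFs, *Dlk1* stood at 14.6 CPM per kilobase, above *Plagl1* at 11.6, and *Mest* came last at 3.00. *Ndn* and *Dlk1*, *Dlk1* and *Plagl1*, *Nnat* and *Peg10*, and *Peg10* and *Mest* overlapped there. The longest transcript need not be the one these cells use, so ranks in either order are uncertain, also beyond close neighbours.

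**Figure D3:**
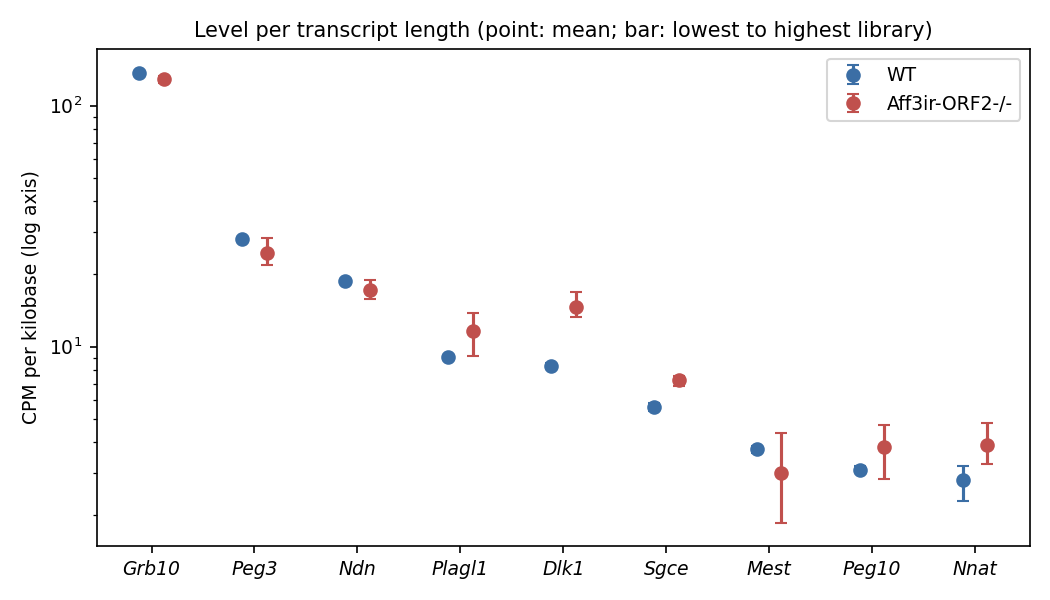
Level of the 9 imprinted genes per length of transcript (CPM per kilobase, log axis) in WT (blue) and *Aff3ir-ORF2-/-* (red) MEFs, where the point is the mean of 3 libraries and the bar runs from the lowest to the highest library. *Grb10*, at 137 CPM per kilobase in WT, lies far above *Peg3* at 28.0, and the WT ranges of neighbouring genes are separate except for *Peg10* and *Nnat*.

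The promoters of 3 of these genes are shown because their CpG content differs widely: *Dlk1*, which was called, *Plagl1*, whose *Aff3ir-ORF2-/-* libraries were split, and *Grb10*, which had the most counts. Each is 300 bases of RefSeq sequence on build GRCm38.p6, from 250 bases before a start site to 50 after it, printed 5′ to 3′ on the gene's strand, with every CpG, the dinucleotide that carries methylation, in capitals. The *Dlk1* window is chr12:109452573-109452872 on the plus strand, the *Plagl1* window chr10:13090582-13090881 on the plus strand and the *Grb10* window chr11:12037371-12037670 on the minus strand.
Dlk1: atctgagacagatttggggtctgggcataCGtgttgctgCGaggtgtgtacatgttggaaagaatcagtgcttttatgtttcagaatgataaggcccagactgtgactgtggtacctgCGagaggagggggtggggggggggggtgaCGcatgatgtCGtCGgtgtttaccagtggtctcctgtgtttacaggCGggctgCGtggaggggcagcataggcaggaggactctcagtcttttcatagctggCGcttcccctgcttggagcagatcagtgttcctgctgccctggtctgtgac
Plagl1: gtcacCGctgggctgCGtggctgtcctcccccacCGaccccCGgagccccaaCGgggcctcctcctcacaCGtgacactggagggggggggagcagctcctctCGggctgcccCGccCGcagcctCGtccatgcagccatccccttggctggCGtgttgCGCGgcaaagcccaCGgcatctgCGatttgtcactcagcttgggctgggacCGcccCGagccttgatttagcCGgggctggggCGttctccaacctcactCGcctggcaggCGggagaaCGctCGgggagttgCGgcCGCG
Grb10: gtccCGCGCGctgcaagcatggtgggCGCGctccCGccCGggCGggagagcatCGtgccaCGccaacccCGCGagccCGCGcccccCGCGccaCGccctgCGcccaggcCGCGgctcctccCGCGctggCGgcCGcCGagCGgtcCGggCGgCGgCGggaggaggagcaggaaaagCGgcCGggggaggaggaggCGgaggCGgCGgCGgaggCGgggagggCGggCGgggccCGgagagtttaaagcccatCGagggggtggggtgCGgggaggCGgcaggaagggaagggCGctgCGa

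The *Dlk1* window holds 9 CpGs, the *Plagl1* window 26 and this *Grb10* window 45, beside a median of 7 over 32851 RefSeq promoters of the same length. Fewer CpGs than in these windows were found in 54.2%, 83.1% and 98.1% of the promoters, respectively. A second *Grb10* start has 9 CpGs. The letters TGCCGC, the core bound by the imprint-keeping protein ZFP57 when methylated, occur on either strand in 1 place each in the *Plagl1* and *Nnat* windows and the *Grb10* window shown, and in 2 places in each of 2 overlapping *Mest* windows. They occur in none of the *Dlk1*, *Peg3* or *Ndn* windows, the third *Mest* window or the second *Grb10* window. Of all promoters, 11.6% hold them, a share not matched for CpG content. Control regions outside these windows were not searched, so a window without the letters does not show that a gene's domain lacks them. Of the 10 genes, 7 had a promoter in the sequence table used.

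Of 11 genes listed as imprinted network partners of the 10, not all of which need be imprinted in fibroblasts, 8 were tested. Of these, 1 was called, *Igf2*, which was lower, or 12.5% against 21.4% of all tested genes (7.27% lower). No partner was called higher, nor at an unadjusted p under 0.05, with DESeq2 or with limma. *Igf2* (16002), the fetal insulin-like growth factor that shares a control region with *H19*, had 14648, 14641 and 14643 counts in WT against 8959, 11490 and 9771 in *Aff3ir-ORF2-/-* libraries. All 3 *Aff3ir-ORF2-/-* libraries were below all 3 WT libraries, and replicate 2 was the nearest to WT. The mean level went from 840 ± 8.55 to 547 ± 63.6 CPM (SD, n = 3 libraries), a log2 fold change of -0.62 (standard error 0.07, 95% interval -0.79 to -0.45, adjusted p = 0.000125). Without *Aff3ir-ORF2-/-* replicate 1 it was -0.55, under 1.5-fold, with an adjusted p of 0.000299. *Igf2* and *Dlk1*, both paternally expressed growth regulators, thus changed in opposite directions.

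*Rtl1*, a retrotransposon-derived gene of the *Dlk1* domain, and *Cdkn1c*, a maternally expressed inhibitor of cyclin-dependent kinases, also passed the adjusted p without reaching 1.5-fold. *Rtl1* had 539, 469 and 526 counts in WT against 645, 762 and 690 in *Aff3ir-ORF2-/-* libraries, with no overlap, giving a log2 fold change of 0.37 with a standard error of 0.08 and an adjusted p of 0.00277. *Cdkn1c* had 423, 436 and 384 counts in WT against 335, 285 and 370 in *Aff3ir-ORF2-/-* libraries, also with no overlap, giving a log2 fold change of -0.41 with a standard error of 0.10 and an adjusted p of 0.00742. *Rtl1* overlaps several microRNA genes, most of them on the opposite strand, and its count is uncertain for that reason.

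The remaining partners did not pass. *Dcn*, a matrix proteoglycan that is also among the fibroblast markers below, had 1874, 1881 and 1835 counts in WT against 2245, 4510 and 2521 in *Aff3ir-ORF2-/-* libraries. Replicate 2 was far above the rest (log2 fold change 0.65, standard error 0.27, adjusted p = 0.094). Without that library it was 0.28, with an adjusted p of 6.35e-05, and without replicate 1 it was 0.82, with an adjusted p of 0.0438, and *Dcn* was called higher. *Gatm*, an enzyme of creatine synthesis, had an adjusted p of 0.0608 at a log2 fold change of 0.53, and without replicate 2 it was called higher at 0.66. Without replicate 3 its log2 fold change was 0.40, with an adjusted p of 0.18. *Gnas*, the stimulatory G protein α subunit, had one of 0.09 (adjusted p = 0.084), *Igf2r*, the receptor that clears IGF2, one of 0.05 (adjusted p = 0.569) and *Slc38a4*, an amino acid transporter, one of 0.02 (adjusted p = 0.894). The sign of the last 2 depended on single libraries. *Meg3*, *Rian* and *Mirg*, the maternally expressed noncoding RNAs of the *Dlk1* domain, were not analysed here.

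Among the genes that lie beside the 10 in their imprinted domains, not all of which are themselves imprinted, 20 of 28 were tested, 5 were called higher and 1 lower, or 30%, against 21.4% of all tested genes (14.2% higher and 7.27% lower). Their median log2 fold change was 0.10. Beside *Peg10* and *Sgce*, *Asb4* (17, 10 and 14 counts in WT, 60, 54 and 37 in *Aff3ir-ORF2-/-*; log2 fold change 1.79, adjusted p = 0.000551), a subunit of ubiquitin ligases, and *Pon2* (log2 fold change 0.61, adjusted p = 3.75e-05), an antioxidant lactonase, rose. Beside *Grb10*, *Cobl*, an actin nucleator, rose with a log2 fold change of 1.07 (adjusted p = 0.0198), and *Ddc*, the aromatic amino acid decarboxylase, fell with one of -1.02 (adjusted p = 0.0184) at 10 to 18 counts in *Aff3ir-ORF2-/-* libraries. *Grb10* thus lay between neighbours that were called in opposite directions while its own level missed the test.

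In the domain of *Ndn*, the paternally expressed *Snrpn*, a splicing protein gene, and *Snurf*, which share a transcript, rose with a log2 fold change of 0.73 each (adjusted p = 0.000102 and 0.00014). Their counts are uncertain, since how the counting assigned reads of the shared transcript is not given. *Ube3a*, a ubiquitin ligase gene of the same domain, had an adjusted p of 0.793 at a log2 fold change of -0.01. *Peg12*, also listed with this domain, was lower without overlap (log2 fold change -0.33, adjusted p = 0.0166), under 1.5-fold. *Mkrn3* had an adjusted p of 0.257 at a log2 fold change of -0.49. The genes of this domain thus did not share a direction. Without WT replicate 2 the number of neighbours called higher fell to 3, and without WT replicate 1, WT replicate 2 or *Aff3ir-ORF2-/-* replicate 1 none was called lower, whereas without *Aff3ir-ORF2-/-* replicate 2 there were 2.

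Of 27 other imprinted genes, 15 were tested, 3 were called higher and none lower, or 20%, against 21.4% of all tested genes, with a median log2 fold change of 0.09. At an unadjusted p under 0.05, with DESeq2 and with limma, 0 were lower too. *Ampd3*, an AMP deaminase, had 427, 450 and 419 counts in WT against 1331, 1143 and 1432 in *Aff3ir-ORF2-/-* libraries (log2 fold change 1.51, adjusted p = 2.21e-06). *Herc3*, a ubiquitin ligase gene, had 282, 277 and 275 in WT against 659, 702 and 639 in *Aff3ir-ORF2-/-* libraries (log2 fold change 1.18, adjusted p = 1.25e-06), and the splicing factor gene *Zrsr1* had an adjusted p of 0.000137 at a log2 fold change of 0.77. Several genes of the list, such as *Ampd3* and *Cd81*, are known as imprinted in placenta only. By the adjusted p without a fold limit, 6 were higher and 3 lower of the 15, against 56.8% of all tested genes in either direction.

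**Figure D4:**
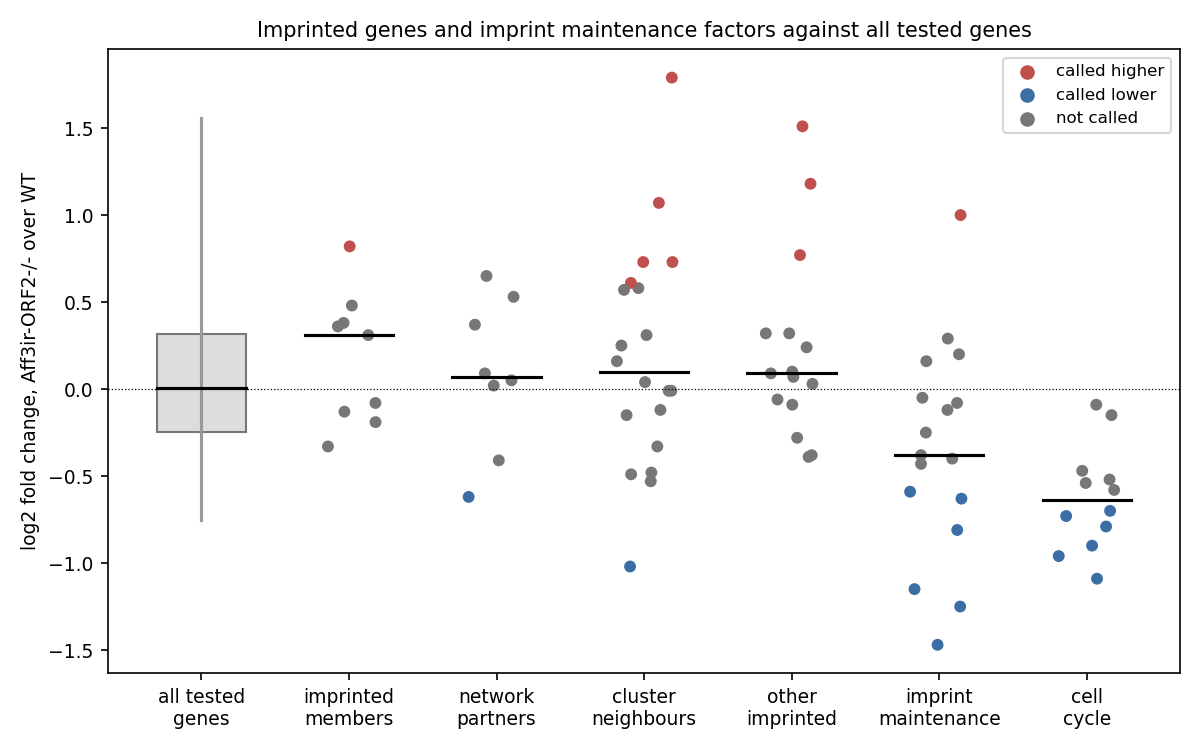
Log2 fold change of *Aff3ir-ORF2-/-* over WT for every tested gene of each list (1 point a gene, median marked), coloured by call, with the imprinted growth-network genes beside their partners, domain neighbours, other imprinted genes, imprint maintenance factors and cell cycle genes. For all tested genes the box holds the middle quartiles and the line runs from the 5th to the 95th percentile. The imprinted lists have medians of 0.31, 0.07, 0.10 and 0.09, the maintenance factors one of -0.38 and the cell cycle genes one of -0.64.

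Of 18 imprint maintenance factors, a list of genes that set, keep or remove DNA methylation and silencing marks, 17 were tested, 1 was called higher and 6 lower, or 41.2%, against 21.4% of all tested genes (7.27% lower). By the adjusted p alone, 3 were higher and 10 lower, against 29.3% higher and 27.5% lower of all tested genes. The median log2 fold change of the list was -0.38. *Dnmt1*, the methyltransferase that copies methylation to new DNA strands, had 5506, 5555 and 5676 counts in WT against 2677, 2438 and 2839 in *Aff3ir-ORF2-/-* libraries (log2 fold change -1.15, standard error 0.06, adjusted p = 1.15e-06). *Uhrf1*, which brings DNMT1 to replicating DNA, had 2562, 2566 and 2520 in WT against 1127, 988 and 1287 in *Aff3ir-ORF2-/-* libraries (log2 fold change -1.25, standard error 0.09, adjusted p = 1.16e-05). Both genes fell without overlap, to 0.45 and 0.422 of the WT level, and *Dnmt3a*, a methyltransferase that sets new methylation, rose 2-fold, from 25.4 ± 0.42 to 50.6 ± 2.22 CPM (SD, n = 3 libraries, adjusted p = 1.66e-06). *Ezh2*, *Smchd1*, *Dnmt3b* and *Dnmt3l*, which act in gene silencing, were also called lower, with log2 fold changes of -0.81, -0.59, -0.63 and -1.47, although *Dnmt3b* and *Dnmt3l* had at most 61 counts in a library. *Trim28*, the corepressor that ZFP57 recruits, had an adjusted p of 0.000186 at a log2 fold change of -0.38, under 1.5-fold.

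Genes of the cell cycle were lower in the same libraries. Of 12, all had a log2 fold change below 0, and 6 were called lower, or 50%, against 7.27% of all tested genes. The adjusted p was passed by 10, all of them lower, against 27.5% of all tested genes that passed it and were lower. The summed level of the 12 was 1650 to 1740 CPM in WT and 892 to 1180 CPM in *Aff3ir-ORF2-/-* libraries. *Pcna*, the sliding clamp of DNA replication, had a log2 fold change of -0.90 and *Mcm2*, a subunit of the replicative helicase, one of -0.96. *Dnmt1* and *Uhrf1* are known to be expressed mainly in dividing cells. The part of the cell cycle genes in the result for the maintenance factors was not tested.

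Among 15 genes listed as signalling partners of the imprinted genes, such as receptors, adaptors and binding proteins, 3 were called higher and 1 lower. That is 26.7%, against 21.4% of all tested genes. The adjusted p was passed by 14, 8 of them higher, against 56.8% of all tested genes. *Notch3* and *Notch1*, receptors of the pathway that DLK1 modulates, rose, with log2 fold changes of 1.44 (71, 83 and 91 counts in WT, 187, 317 and 199 in *Aff3ir-ORF2-/-*; adjusted p = 0.000644) and 0.64 (adjusted p = 0.000125). The insulin receptor substrates were split, with *Irs1* called higher (log2 fold change 0.59, adjusted p = 0.000143) and *Irs2* lower (-0.63, adjusted p = 4.27e-05). *Igf1r*, the main receptor of IGF2, had an adjusted p of 0.0132 at a log2 fold change of -0.17. Without *Aff3ir-ORF2-/-* replicate 3, 1 gene was called higher, and without replicate 2 none was called lower.

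The labelled cell type was checked against its markers. All 13 fibroblast markers were tested, and 2 were called higher and 1 lower, or 23.1%. Of all tested genes, 21.4% were called (14.2% higher and 7.27% lower), which is the share to set beside each list of markers. The summed level of the fibroblast markers was 30500 to 30600 CPM in WT and 25400 to 32300 CPM in *Aff3ir-ORF2-/-* libraries. Markers of macrophages were called higher in 13 of 13, with a summed level of 20.5 to 23.6 CPM in WT and 1290 to 2190 CPM in *Aff3ir-ORF2-/-* libraries, and *C1qa* and *C1qb* were at 0 counts in every WT library. Cartilage and bone markers summed to 533 to 545 CPM in WT and 1740 to 2540 CPM in *Aff3ir-ORF2-/-* libraries, a sum made up mostly of *Spp1* (469 to 1960 CPM on average). *Col2a1* was also called higher, *Sox9* and *Acan* were called lower, and the median log2 fold change of the list was -0.51. Adipocyte markers summed to 36.3 to 38.5 and 84.8 to 117 CPM, with 3 of 5 called higher. Most of that difference was *Cd36* (0.172 to 44.8 CPM on average), *Pparg* had an adjusted p of 0.104 at a log2 fold change of -0.58, and *Adipoq* and *Plin1* had at most 2 counts in a library. Skeletal muscle markers summed to 14.9 to 16.6 and 43.9 to 63.3 CPM, and most of that difference was *Des* (10.9 to 48.1 CPM on average). Of the 4 tested, *Des* and *Pax3* were called higher. *Ttn* and *Chrna1* did not pass the test, with log2 fold changes of -0.34 and -0.21. *Myf5* and *Pax7* were at 0 in WT and had at most 1 count in *Aff3ir-ORF2-/-* libraries. Neural markers summed to 172 to 178 and 185 to 259 CPM, endothelial markers to 7.94 to 8.87 and 16.5 to 21.3 CPM, and epithelial markers to 22.2 to 22.9 and 12.6 to 25.4 CPM. The part of these markers in the results for the imprinted genes was not tested, and in bulk RNA fewer cells of a type and less RNA per cell cannot be told apart.

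The tested genes whose log2 CPM followed that of *Dlk1* most closely over the 6 libraries were *Ninj1*, *Pde1b* and *Col2a1*, with Pearson's r of 0.9977, 0.9975 and 0.9974. These 6 points form 2 genotypes, and 2237 of the 13074 other tested genes had an r over 0.9 with *Dlk1*, so the values describe these libraries only. *Ninj1* had a log2 fold change of 0.84, close to that of *Dlk1*, while *Pde1b* and *Col2a1* had 1.34 and 2.34.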

How the data were processed

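RNA of 3 WT and 3 *Aff3ir-ORF2-/-* MEF libraries was sequenced. After read filtering with SOAPnuke, the authors deposited a table of estimated counts for each gene, with no normalization. The submitters' processing notes name build mm8, and the aligner, counter and annotation are not given in the sources used here. Between 10.6% and 11.3% of values were not whole and were rounded. Genes passing filterByExpr (minimum count 10, minimum total 15) were tested with edgeR 4.0.16's robust quasi-likelihood test after TMM scaling, without covariates, and p-values were adjusted by Benjamini-Hochberg over all 13075. Standard errors follow from the F statistic. log2 CPM for correlations used a prior count of 2. R 4.3.3, limma 3.58.1, DESeq2 1.42.0, Python 3.11.15 and matplotlib 3.10.9 were used, and the functions were tested on simulated data.

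The genes and lists were chosen with earlier results of these data known. Named were all members, all partners and, of other lists apart from the cell type markers and cell cycle genes, up to 8 called genes by adjusted p. Some of the most counted genes, up to 3 a list, were named too. Other genes, chosen after their values were seen, are named where a count needs them. Transcript lengths came from GENCODE M21. Alternatives were DESeq2's size factors, upper quartile and total count scaling, other filters, limma voom with genotype weights, DESeq2's Wald test, a replicate block, left-out libraries, unadjusted p, a 2-fold change and a test against 1.5-fold.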

Additional observations from a re-analysis of the deposited data

How the results depend on the processing

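The log2 fold changes of the 9 genes kept their sign under all 15 other settings of scaling, filter, tool, block or left-out library. *Dlk1* ranged from 0.70 to 0.88 and *Sgce* from 0.35 to 0.42, and neither crossed the threshold. *Plagl1* passed the adjusted p in 7, *Nnat* in 5, *Peg3* in 3 and *Mest*, *Ndn* and *Peg10* in 1 each.

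Leaving out each library in turn gave 1 to 2 of the 9 called higher and 0 to 1 lower, 0 to 1 partners higher and 0 to 1 lower, 3 to 6 domain neighbours higher and 0 to 2 lower, and 1 to 3 signalling partners higher and 0 to 1 lower. *Igf2r* ranged from -0.05 to 0.11 and *Slc38a4* from -0.10 to 0.15. *Igf2r* turned to -0.05 without *Aff3ir-ORF2-/-* replicate 2, and *Slc38a4* to -0.02, -0.01 and -0.10 without WT replicate 2, *Aff3ir-ORF2-/-* replicate 1 and *Aff3ir-ORF2-/-* replicate 3. At a 2-fold change, 0 of the 9 genes and 0 partners were called, as were 2 neighbours higher, 0 maintenance factors higher and 3 lower, 1 signalling partner higher and 0 lower, and 1096 of all genes higher and 317 lower. A test against a 1.5-fold change called 0 partners, 1 neighbour higher and 0 lower, 3 maintenance factors lower, 1 signalling partner higher and 0 lower, and 1074 of all genes higher and 410 lower. *Igf2* at -0.58 with upper quartile scaling left 0 partners lower, and without edgeR's robust option, chosen after seeing the data, 1 partner, *Dcn*, was higher. In each case the cause was not tested.

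The replicate numbers were not used as pairs in the main fit, and whether they pair the libraries is not given. Same-numbered libraries correlated in their deviations at 0.039, 0.042 and 0.015, each highest with its own number, a hint from the data only. With the replicate number as a block, 1 of the 9 was called higher and 0 lower, as without it, while *Plagl1*, *Nnat* and *Peg3* passed the adjusted p (0.0298, 0.0178 and 0.0319). The floor of 3 counts stood at 0.164 to 0.172 CPM (counting error only), and the 9 genes had at least 58 counts in every library.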
